A study of Mus musculus with 8 samples.

Results

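Cd80, Cd86, Icosl, Cd274, Pdcd1lg2 and Cd40 encode cell-surface molecules through which macrophages instruct T cells. All 6 were chosen by their symbols, with earlier results of these data known, from a count table of 37310 mouse genes, and each was found as 1 row. They were followed in alveolar macrophages, which live in the airspaces and clear inhaled matter, by bulk RNA sequencing of 8 libraries, 2 in each of 4 groups. The texAM were C57BL/6 alveolar macrophages that had been expanded in culture, put into the airways of C57Bl/6-Ly5.1 mice and sorted from the lung 4 months later. The exAM were the C57BL/6 cells in culture, taken at 2 months. The tAM were C57BL/6 alveolar macrophages that had been transplanted without expansion and also sorted after 4 months. The HostAM were the Ly5.1 mice's own alveolar macrophages, and whether those mice had been given cells or PBS is not stated. Donors and recipients were wild type and 8 weeks old. The 3 groups from lung were sorted for SiglecF and CD11c, with CD45.2 for texAM and tAM and CD45.1 for HostAM, whereas exAM were unsorted. Each library pooled 3 mice or 3 cultures, so p-values measure the spread between pools.

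T cell activation needs a signal from the antigen receptor together with co-stimulation. CD80 and CD86 deliver the co-stimulation by binding CD28, and they also bind the inhibitory receptor CTLA-4, while ICOSL binds ICOS. PD-L1, the product of Cd274, and PD-L2, the product of Pdcd1lg2, bind the inhibitory receptor PD-1. CD40 is not a ligand but the receptor through which T cells bearing CD40 ligand signal back to the presenting cell. Alveolar macrophages are known as weak stimulators of T cells.

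In exAM, the co-stimulatory ligand genes Cd80, Cd86 and Icosl and the PD-L2 gene Pdcd1lg2 were lower than in texAM, tAM and HostAM, and the PD-L1 gene Cd274 was higher than in all 3. In the cultured cells 92.4% to 93.7% of the summed length-scaled level of the 6 genes was Cd274, against 61.4% to 69.2% in the 6 lung libraries. In texAM no member was called different from tAM or from HostAM. Cd40, with few counts, stood low in exAM and in tAM, but its differences between tAM and the other groups were not called. These calls come from edgeR's quasi-likelihood test, with Benjamini-Hochberg adjustment over the 14537 genes tested and a threshold of 0.05, and "edgeR adjusted p" refers to it throughout.

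The checkpoint ligand genes lie side by side on mouse chromosome 19 (GRCm38), both on the + strand. Cd274 (ENSMUSG00000016496) spans 29367455 to 29388095 and Pdcd1lg2 (ENSMUSG00000016498) spans 29410919 to 29471161. Their starts are 43.464 kb apart with 0 protein-coding genes between them. Because these neighbours went in opposite directions between cultured and lung cells, the 250 bases before each RefSeq start (build GRCm38.p6, + strand) are shown. The Cd274 stretch is chr19:29367188-29367437 and the Pdcd1lg2 stretch is chr19:29410669-29410918. Capitals mark a match to a STAT6-type site.
Cd274: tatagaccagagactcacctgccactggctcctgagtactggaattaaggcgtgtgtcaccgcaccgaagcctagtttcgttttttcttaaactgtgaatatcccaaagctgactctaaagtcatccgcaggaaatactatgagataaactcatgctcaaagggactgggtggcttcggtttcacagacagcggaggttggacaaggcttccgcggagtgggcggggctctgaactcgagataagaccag
Pdcd1lg2: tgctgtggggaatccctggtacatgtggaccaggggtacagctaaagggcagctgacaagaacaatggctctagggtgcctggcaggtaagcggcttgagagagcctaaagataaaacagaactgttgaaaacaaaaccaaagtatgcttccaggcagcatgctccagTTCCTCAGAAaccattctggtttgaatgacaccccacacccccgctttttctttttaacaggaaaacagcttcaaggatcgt

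Both strands of such windows were searched for 5 motifs, whose letters may overlap. They were the interferon-stimulated response element core GAAANNGAAA, the gamma-activated site TTCNNNGAA, the STAT6-type site TTCNNNNGAA, the NF-kB site GGGANTTNCC and the AP-1 site TGANTCA. The Pdcd1lg2 window held the STAT6-type letters at positions -82 to -73 from the start, as did 5.85% of 32851 mouse promoters. The Cd274 window held 0 matches. RefSeq promoters were found for 4 of the 6 members. Of the others found, the Icosl window held 0 matches. The Cd80 window (chr16:38458683-38458932) held the AP-1 letters TGATTCA at -42 to -36, which 6.75% of promoters hold. It precedes a RefSeq start that lies inside the GENCODE span of Cd80, 38455561 to 38496335, and not the start of that span. The shares of promoters with the remaining motifs were 2.98% for the interferon-stimulated response element core, 7.02% for the gamma-activated site and 0.98% for the NF-kB site.

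**Figure D1:**
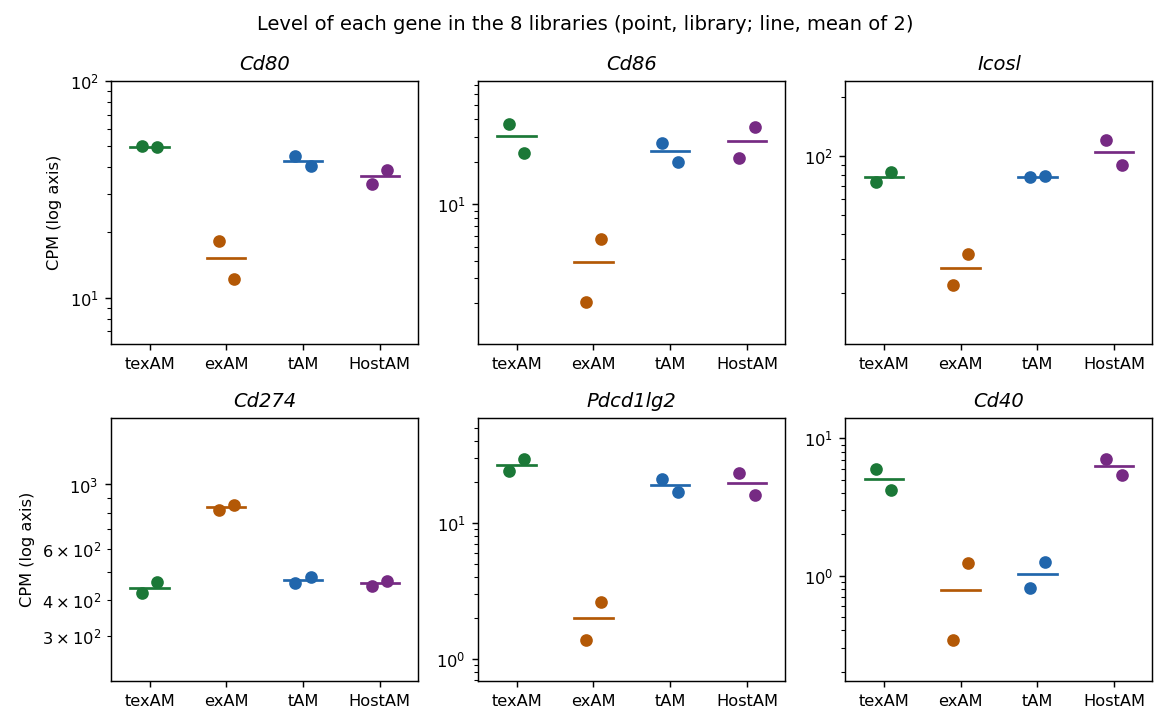
Level of each of the 6 genes in CPM (log axis, a separate range in each panel) in the 2 libraries of each group, with points for libraries and lines for group means. The exAM points lie below every lung library for Cd80, Cd86, Icosl and Pdcd1lg2 and above every lung library for Cd274, and Cd40 is low in exAM and tAM.

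Levels are given as CPM, counts scaled to a common library size with TMM factors, with the 2 libraries of each group in order. Library totals ran from 6546272 counts (exAM 1) to 9154128 counts (texAM 1). The 2 exAM libraries were the smallest, and they stood apart from the lung libraries in 43.7% to 44.7% of tested genes. All 15 alveolar macrophage markers, among them Siglecf, Itgax and Marco, were detected in every group, with summed levels of 4065 to 4432 CPM in texAM, 5217 to 6176 CPM in exAM, 4594 to 4788 CPM in tAM and 4343 to 4442 CPM in HostAM. In bulk libraries such as these, fewer cells of a type and less RNA per cell cannot be told apart.

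Cd80 (ENSMUSG00000075122, chromosome 16, 38455561 to 38496335, + strand) encodes the ligand that binds CTLA-4 most tightly. It stood at 50.01 and 49.6 CPM in texAM, 18.2 and 12.2 CPM in exAM, 45.2 and 40.4 CPM in tAM, and 33.6 and 39.0 CPM in HostAM. Both exAM libraries lay below all 6 lung libraries, and both texAM libraries lay above the other lung libraries. The level in texAM was 3.29-fold that in exAM (log2 1.72, SE 0.23, edgeR adjusted p = 0.000245). In exAM it was 2.82-fold lower than in tAM (log2 -1.50, edgeR adjusted p = 0.000561) and 2.40-fold lower than in HostAM (log2 -1.26, edgeR adjusted p = 0.00166).

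Cd86 (ENSMUSG00000022901, chromosome 16, 36603869 to 36666081, - strand) encodes the other CD28 ligand, and 25 protein-coding genes lie between it and Cd80. It stood at 37.1 and 23.2 CPM in texAM, 2.06 and 5.71 CPM in exAM, 27.3 and 19.9 CPM in tAM, and 21.2 and 35.1 CPM in HostAM. Both exAM libraries were below every lung library, and the 3 lung groups overlapped. The texAM level was 7.64-fold that of exAM (log2 2.93, SE 0.47, edgeR adjusted p = 0.000709). The exAM level was 5.99-fold lower than that of tAM (log2 -2.58, edgeR adjusted p = 0.00147) and 7.13-fold lower than that of HostAM (log2 -2.83, edgeR adjusted p = 0.000868). The exAM libraries held 49 Cd86 counts in all, and the size of these changes rested in part on exAM 2. Without it the log2 changes were 3.83 for texAM over exAM, -3.50 for exAM over tAM and -3.75 for exAM over HostAM.

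Icosl (ENSMUSG00000000732, chromosome 10, 78069302 to 78083913, + strand) encodes the ligand that sustains T cells already activated. It stood at 73.7 and 82.7 CPM in texAM, 22.0 and 31.8 CPM in exAM, 77.9 and 78.6 CPM in tAM, and 120.5 and 89.9 CPM in HostAM. The exAM libraries were the lowest, and both HostAM libraries were above those of the transplanted cells. The level in texAM was 2.90-fold that in exAM (log2 1.54, SE 0.21, edgeR adjusted p = 0.000248), and exAM was lower than tAM by the same fold of 2.90 (log2 -1.54, edgeR adjusted p = 0.000236). Against HostAM, exAM was 3.90-fold lower (log2 -1.96, edgeR adjusted p = 5.00e-05).

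Cd274 encodes PD-L1, the broadly expressed ligand of PD-1. It stood at 421 and 462 CPM in texAM, 820.0 and 849 CPM in exAM, 457 and 478 CPM in tAM, and 446 and 466 CPM in HostAM. Both exAM libraries were above all lung libraries, which spanned a narrow range with the 3 groups overlapping. The texAM level was 1.89-fold lower than that of exAM (log2 -0.92, SE 0.079, edgeR adjusted p = 1.16e-05). In exAM it was 1.79-fold higher than in tAM (log2 0.84, edgeR adjusted p = 1.98e-05) and 1.83-fold higher than in HostAM (log2 0.87, edgeR adjusted p = 1.61e-05). An annotated antisense gene, AC119228.1, shares 511 exonic bases with Cd274, and since the strand setting of the counting is not given in the sources used here, reads of the pair could not be told apart.

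The size of the Cd274 change depended on how libraries were scaled. Its raw counts were 4036 and 4052 in texAM, 4781 and 5498 in exAM, 3933 and 3815 in tAM, and 4048 and 4049 in HostAM. The ratio of mean raw counts was therefore 0.787 for texAM over exAM and 1.33 for exAM over tAM, closer to 1 than the scaled folds. Cd274 averaged 1.18 counts per base of its longest transcript, above 99.1% of tested genes, and counts of the 226 genes over 1 count per base hardly followed library totals. Between the exAM libraries, for instance, the median ratio of their counts was 0.996, while the ratio of the totals was 1.09. Cd274 itself departed from its class there, rising with the totals from 4781 counts in exAM 1 to 5498 in exAM 2.

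Well-known macrophage genes of that class had counts that hardly followed the totals. Cd68, a lysosomal protein gene, had 2243 to 2285 raw counts over all 8 libraries, yet its log2 change in exAM against tAM came out as 0.45. Lyz2, the lysozyme gene, had 2077 to 2137 counts and a log2 change of 0.44. Of the 226 genes, 55.8% were called higher in exAM than in tAM and 12.8% lower, with a median log2 change of 0.31, and 6.19% changed upwards by at least as much as Cd274. When the libraries were scaled on these 226 genes alone, an alternative chosen after seeing the data, Cd274 kept its call with a smaller change, at log2 -0.50 for texAM over exAM (edgeR adjusted p = 0.00154), 0.53 for exAM over tAM (edgeR adjusted p = 0.00111) and 0.50 for exAM over HostAM (edgeR adjusted p = 0.00143). That scaling set the median of all tested genes to 0.54, -0.39 and -0.45 in these comparisons, against 0.11, -0.09 and -0.08 with the usual one. The other members averaged 0.00971 to 0.219 counts per base.

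**Figure D2:**
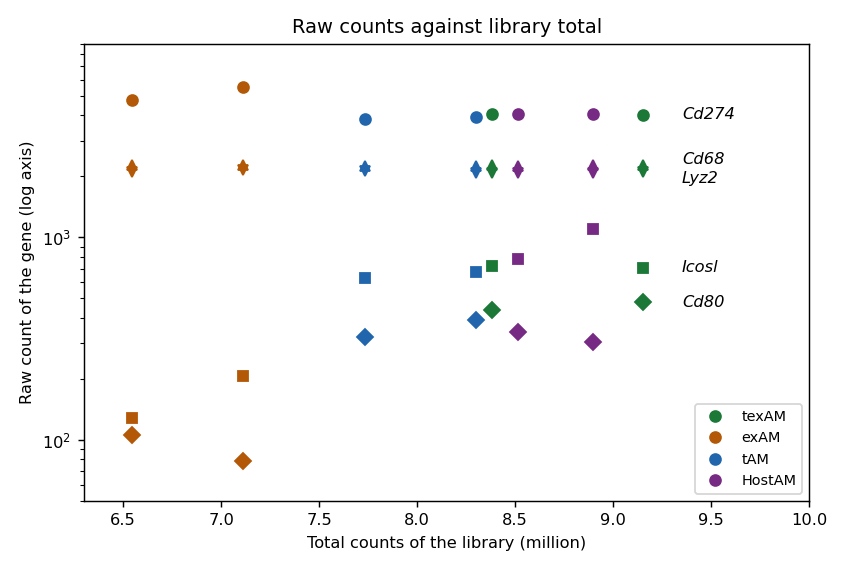
Raw counts of Cd274, Cd68, Lyz2, Icosl and Cd80 (log axis) against the total counts of each of the 8 libraries, coloured by group. Cd68 and Lyz2 stay level at 2243 to 2285 and 2077 to 2137 counts, Cd274 lies at 3815 to 4052 counts in lung libraries and at 4781 and 5498 in exAM, and Icosl and Cd80 drop in exAM.

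Pdcd1lg2 encodes PD-L2, a PD-1 ligand found mainly on dendritic cells and macrophages. It stood at 24.0 and 29.8 CPM in texAM, 1.37 and 2.62 CPM in exAM, 21.2 and 16.8 CPM in tAM, and 23.1 and 16.0 CPM in HostAM. Both exAM libraries were far below all others, with raw counts of 8 and 17 against 134 to 261 in the lung libraries, and both texAM libraries were above the other lung libraries. In texAM it was 13.2-fold higher than in exAM (log2 3.73, SE 0.40, edgeR adjusted p = 5.39e-05), the largest change of any member. In exAM it was 9.37-fold lower than in tAM (log2 -3.23, edgeR adjusted p = 0.000128) and 9.64-fold lower than in HostAM (log2 -3.27, edgeR adjusted p = 0.000123).

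Cd40 (ENSMUSG00000017652, chromosome 2, 165055627 to 165072948, + strand) had the lowest level of the 6, at 5.95 and 4.22 CPM in texAM, 0.343 and 1.24 CPM in exAM, 0.812 and 1.25 CPM in tAM, and 7.05 and 5.41 CPM in HostAM. Its raw counts were 57 and 37 in texAM, 2 and 8 in exAM, 7 and 10 in tAM, and 64 and 47 in HostAM. The texAM and HostAM libraries overlapped each other and lay above all exAM and tAM libraries, which also overlapped. The texAM level was 6.26-fold that of exAM (log2 2.65, SE 0.72, edgeR adjusted p = 0.0138), and exAM was 7.66-fold lower than HostAM (log2 -2.94, edgeR adjusted p = 0.00816).

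The Cd40 calls rested on few counts. The difference of texAM from exAM was no longer called without texAM 1 (log2 2.38, edgeR adjusted p = 0.0708) or without exAM 1 (log2 2.00, edgeR adjusted p = 0.110), and that of exAM from HostAM was lost without exAM 1 (log2 -2.31, edgeR adjusted p = 0.0708). Without exAM 2 these changes grew to log2 3.81 and -4.11. In exAM against tAM the log2 change of -0.36 (95% interval -2.06 to 1.34) was not called.

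Over the members, 6 of 6 differed between texAM and exAM, 5 higher and 1 lower in texAM, where 43.7% of all tested genes were called, 23.2% higher and 20.5% lower. In exAM against tAM 5 of 6 were called, 1 higher and 4 lower, where 44.7% of all tested genes were called, 21.5% higher and 23.2% lower. In exAM against HostAM 6 of 6 were called, 1 higher and 5 lower, where 44.1% of all tested genes were called, 20.9% higher and 23.3% lower. Libraries did not overlap for 6 of 6 members between texAM and exAM, 5 of 6 between exAM and tAM and 6 of 6 between exAM and HostAM, where 77.5%, 76.4% and 73.7% of all tested genes did not overlap. These comparisons share the exAM libraries. The members' median log2 change was 2.18 in texAM over exAM, -1.52 in exAM over tAM and -2.40 in exAM over HostAM. Library-size scaling without TMM left the members' counts as they were, but it moved the share of calls that were higher to 68.1% for texAM over exAM, 34.5% for exAM over tAM and 35.2% for exAM over HostAM, against 53.1%, 48.0% and 47.3% with TMM. A test for any difference among the 4 groups called 6 of 6 members, where 41.9% of tested genes were called.

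**Figure D3:**
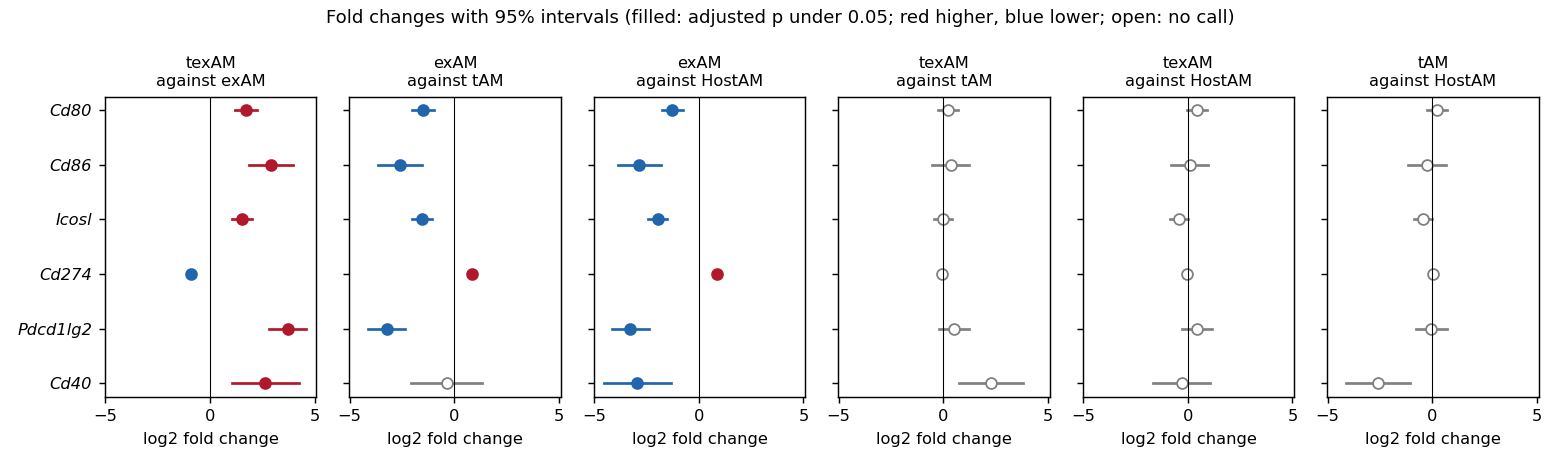
Log2 fold changes of the 6 genes with 95% intervals in the 6 comparisons, filled where edgeR's adjusted p was under 0.05 (red higher, blue lower in the group named first). Changes are filled for 6, 5 and 6 genes in the comparisons that involve exAM and for 0 genes in the 3 comparisons among lung groups.

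Among the lung groups no member passed the test. In texAM against tAM 0 of 6 were called by edgeR (1 had an unadjusted p under 0.05, 0 were called by DESeq2), where 0.00688% of all tested genes were called. In texAM against HostAM 0 of 6 were called (0 had an unadjusted p under 0.05, 0 were called by DESeq2), where 0.33% of all genes were called, and in tAM against HostAM 0 of 6 (1 with an unadjusted p under 0.05, 0 by DESeq2), where 0.0413% were called. For Cd274 the log2 change of texAM over tAM was -0.08 (95% interval -0.26 to 0.09), and that of texAM over HostAM was -0.05 (-0.22 to 0.13). Its raw counts stayed at 3815 to 4052 in the lung libraries, and it belongs to the genes over 1 count per base. Counts of that class hardly followed library totals, and whether this narrowed the Cd274 intervals was not tested. The interval was wider for Cd80, at 0.22 (-0.26 to 0.70) for texAM over tAM, and for Cd86, at 0.35 (-0.54 to 1.25), so changes under about that size could not be detected with 2 pools a group.

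Libraries of texAM and tAM did not overlap for Cd80, Pdcd1lg2 and Cd40, 3 of 6 members, where 42.1% of all tested genes did not overlap. For texAM and HostAM these were Cd80, Icosl and Pdcd1lg2, 3 of 6 against 42.8% of all genes, and for tAM and HostAM they were Cd80, Icosl and Cd40, 3 of 6 against 37.8% of all genes. The largest difference among lung groups was in Cd40, the member with the fewest counts. Its level in texAM was 4.88-fold that in tAM (log2 2.29, 95% interval 0.76 to 3.81, edgeR adjusted p = 0.463), and in tAM it was 5.98-fold lower than in HostAM (log2 -2.58, 95% interval -4.11 to -1.05, edgeR adjusted p = 0.241). The tAM difference from HostAM was called only when genes of low count were kept in the table (edgeR adjusted p = 0.0393). Icosl was lower in both transplanted groups than in HostAM by a log2 of 0.43 that did not pass the test (edgeR adjusted p = 0.385 for texAM and 0.506 for tAM). Any difference among the 3 lung groups was tested as well, with 0 of 6 members called (Cd40 at an unadjusted p of 0.0103 and edgeR adjusted p = 0.249), where 0.275% of all genes were called.

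Scaled by transcript length, to CPM per kb of the longest transcript, the order of the 6 levels can be compared between genes. In texAM the level of Cd274 averaged 122 ± 7.97 CPM per kb, followed by Icosl at 27.8 ± 2.26, Cd80 at 15.7 ± 0.087, Pdcd1lg2 at 15.6 ± 2.36, Cd86 at 11.9 ± 3.87 and Cd40 at 1.70 ± 0.410 (SD, n = 2). In exAM the level of Cd274 averaged 230.4 ± 5.65 CPM per kb, followed by Icosl at 9.55 ± 2.48, Cd80 at 4.79 ± 1.33, Cd86 at 1.53 ± 1.02, Pdcd1lg2 at 1.16 ± 0.512 and Cd40 at 0.264 ± 0.211 (SD, n = 2). The genes of the 2 groups thus kept Cd274 and Icosl at the top and Cd40 at the bottom, and in texAM the levels of Cd80, Pdcd1lg2 and Cd86 did not differ beyond their spread. In tAM and HostAM, too, Cd274 came first, at 129 ± 4.27 and 126 ± 3.88 CPM per kb, and Icosl next, at 27.8 ± 0.185 and 37.4 ± 7.68 CPM per kb (SD, n = 2 each).

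The balance between the ligands differed more than their sum. The ratio of Cd274 to Pdcd1lg2, on the scale of CPM per kb, was 8.38 and 7.41 in texAM, 285 and 154 in exAM, 10.3 and 13.6 in tAM, and 9.202 and 13.9 in HostAM. The ratio of Cd274 to the sum of Cd80 and Cd86 was 3.83 and 5.15 in texAM, 34.6 and 38.5 in exAM, 5.05 and 6.42 in tAM, and 6.51 and 4.93 in HostAM. In both ratios the exAM libraries stood above all lung libraries. The lung groups overlapped in the ratio to Cd80 and Cd86, while in the ratio to Pdcd1lg2 both texAM libraries lay below those of tAM and HostAM. The ratio of Cd80 to Cd86 was 1.08 and 1.71 in texAM, 7.07 and 1.71 in exAM, 1.32 and 1.62 in tAM, and 1.27 and 0.889 in HostAM, so that only exAM 1 stood apart. Ratios within a library do not depend on its scaling factor. Those with Cd274, and its share of the sum, can still depend on depth. For genes over 1 count per base the median count ratio between the exAM libraries was 0.996. It was 1.13 for genes at 0.01 to 0.1 counts per base, such as Pdcd1lg2, Cd80 and Cd86, while the totals had a ratio of 1.09. The part of depth in the Cd274 ratios was not tested.

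The sum of all 6 genes was 189 and 200.4 CPM per kb in texAM, 242 and 254 in exAM, 191 and 191 in tAM, and 201 and 198 in HostAM. Without Cd274 the sum was 72.4 and 72.8 CPM per kb in texAM, 15.2 and 19.3 in exAM, 65.2 and 58.7 in tAM, and 77.5 and 69.1 in HostAM. With TMM the cultured libraries were the highest in the full sum and the lowest once Cd274 was left out. With scaling on the 226 genes of high counts per base the full sum was 218 and 214 CPM per kb in texAM, 189 and 221 in exAM, 201 and 189 in tAM, and 217 and 209 in HostAM, so that exAM no longer stood apart. The sum without Cd274 was still lowest in exAM, at 11.9 and 16.9 CPM per kb against 58.2 to 83.9 in lung libraries.

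**Figure D4:**
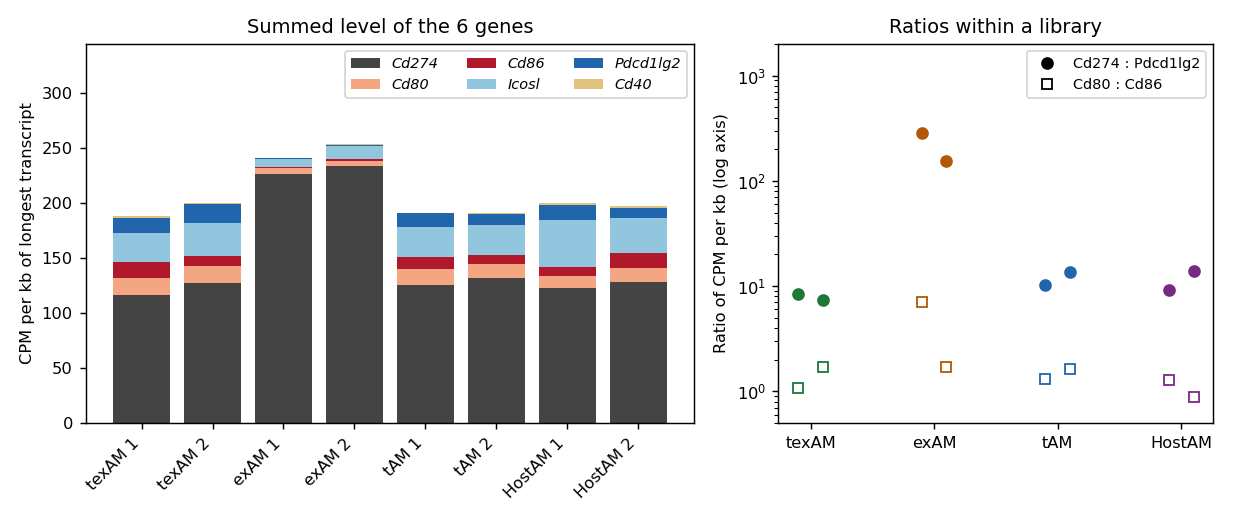
Left, the level of the 6 genes in CPM per kb of longest transcript stacked for each library; right, the ratios of Cd274 to Pdcd1lg2 and of Cd80 to Cd86 within each library (log axis). Cd274 fills 92.4% to 93.7% of the exAM bars and 61.4% to 69.2% of the lung bars, and the Cd274 to Pdcd1lg2 ratio is 154 and 285 in exAM against 7.41 to 13.9 in lung libraries.

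Of 9137 other genes with at least 10 CPM on average, those with the profile most like each member over the 8 libraries were found by the root mean square difference of centred log2 CPM. For Cd80 they were Hnrnpdl (0.135) and Fpr2 (0.142), and for Icosl Chd5 (0.146) and Epn1 (0.147). Cd274 had the closest match of any member, Ndufa12 (0.042), a subunit of respiratory complex I, followed by Ldha (0.051), which makes lactate dehydrogenase A. For Pdcd1lg2 they were Coq8a (0.272) and Fcgr2b (0.286), the inhibitory Fc receptor, which averaged 164 CPM in texAM, 15.9 in exAM, 125 in tAM and 99.6 in HostAM. Cd86 (Zfp760 at 0.283, Oplah at 0.308) and above all Cd40 (Jdp2 at 0.534, Csrnp1 at 0.676) had looser matches. Cd274 had the most counts of the members and Cd40 the fewest, and few counts widen such distances. Shared regulation of the matched genes was not tested. Among the members themselves the closest profiles were those of Cd80 and Icosl (0.462) and of Cd86 and Pdcd1lg2 (0.485), over libraries that share the split between exAM and lung.

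Several other ligands of lymphocyte receptors were higher in exAM. Of the other B7 family genes, 2 of 6 had enough counts, and both were higher in exAM than in tAM, as were 21.5% of all tested genes. Their median log2 change was 1.45, against -0.09 for all tested genes. Cd276, the gene of B7-H3, stood at 111 and 64.2 CPM in exAM and 19.6 and 22.9 CPM in tAM (log2 2.04, edgeR adjusted p = 0.000178). Vsir, the gene of the checkpoint molecule VISTA, stood at 307 and 244 CPM in exAM and 150.2 and 151 CPM in tAM (log2 0.87, edgeR adjusted p = 0.00534), and its call was lost with scaling on the 226 genes of high counts per base (edgeR adjusted p = 0.0559).

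Of 10 tested genes for other inhibitory or adhesive partners of lymphocytes, 6 were higher in exAM than in tAM and 0 lower (median log2 change 0.91). Among all tested genes 21.5% were called higher and 23.2% lower. Ceacam1, which makes a ligand of the checkpoint receptor TIM-3, stood at 308 and 335 CPM in exAM and 11.8 and 18.8 CPM in tAM (log2 4.39, edgeR adjusted p = 4.73e-07). Cd200, whose product restrains myeloid cells, stood at 348 and 368 CPM in exAM and 83.1 and 86.0 CPM in tAM (log2 2.08, edgeR adjusted p = 1.23e-05). Pvr (log2 2.53, edgeR adjusted p = 0.00141) and Nectin3 (log2 3.67, edgeR adjusted p = 0.000574), which make partners of the receptor TIGIT, were also higher. So were Cd200r1 (log2 1.05) and, by the least, Cd47 (log2 0.23), whose sign turned to -0.08 with scaling on the genes of high counts per base. With that scaling the list had 5 genes higher and 2 lower, the lower ones being the galectin-9 gene Lgals9 (log2 -0.46, edgeR adjusted p = 0.0105, against -0.15 and no call with TMM) and Cd48 (log2 -0.62, edgeR adjusted p = 0.0312, against -0.32 and no call). In texAM against exAM 0 of these 10 were higher and 7 lower, where 23.2% of all tested genes were higher and 20.5% lower.

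The pathways known to drive the members were examined next. Interferon gamma induces Cd274 and Cd40 through JAK kinases and IRF1, and IL-4 induces Pdcd1lg2 through STAT6. Of 22 genes of these pathways, 5 were higher and 8 lower in exAM than in tAM (median log2 change -0.18). Since 21.5% of all tested genes were called higher and 23.2% lower, the count higher was near that of any list. Irf1, the transcription factor that acts on the Cd274 promoter, stood at 17.2 and 13.7 CPM in exAM and 61.7 and 56.4 CPM in tAM (log2 -1.94, edgeR adjusted p = 3.15e-05). Ifngr1, a chain of the interferon gamma receptor, was also lower (log2 -0.91, edgeR adjusted p = 0.000354), as was Stat5a (log2 -2.16, edgeR adjusted p = 1.01e-06), while the kinase gene Jak1 was higher (log2 0.95, edgeR adjusted p = 2.16e-05). Il4ra (log2 0.07) and Stat6 (log2 -0.19) were not called, but Stat6 was called lower with scaling on the genes of high counts per base (log2 -0.49, edgeR adjusted p = 0.0141), which gave 3 of the 22 higher and 11 lower. In texAM against exAM 8 of the 22 were higher and 3 lower, where 23.2% of all tested genes were higher and 20.5% lower.

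Of 19 genes of CD40 and NF-kB signalling, 3 were higher and 11 lower in exAM than in tAM (median log2 change -0.71). The shares of all tested genes were 21.5% higher and 23.2% lower. Traf1, an adaptor in signalling from CD40, had 1 and 0 counts in exAM and 233 and 136 counts in tAM. Map3k14, the kinase of the non-canonical pathway, stood at 3.77 and 7.72 CPM in exAM and 43.3 and 62.2 CPM in tAM (log2 -3.18, edgeR adjusted p = 4.38e-05). Nfkb1 (log2 -1.12, edgeR adjusted p = 6.65e-05) and the kinase gene Ikbkb (log2 -1.39, edgeR adjusted p = 4.89e-06) were lower, and Traf6 (log2 1.46, edgeR adjusted p = 0.000118) and Ikbkg (log2 1.24, edgeR adjusted p = 0.000683) were higher. In texAM against exAM 12 of the 19 were higher and 2 lower, where 23.2% of all tested genes were higher and 20.5% lower.

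Of 8 tested genes that act on PD-L1 protein, 2 were higher and 1 lower in exAM than in tAM (median log2 change 0.01). Of all tested genes 44.7% were called, a larger share than in this list. Gsk3b, a kinase that marks PD-L1 for breakdown, was higher (log2 0.70, edgeR adjusted p = 9.07e-05), and so was the kinase gene Csnk2a1 (log2 0.69, edgeR adjusted p = 0.00134). Hip1r, which directs PD-L1 to lysosomes, stood at 1.54 and 1.08 CPM in exAM and 19.2 and 23.2 CPM in tAM (log2 -4.005, edgeR adjusted p = 7.50e-05). Cmtm6, which stabilises PD-L1 at the surface, had a log2 change of 0.04 that was not called. PD-L1 protein was not measured in these libraries.

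**Figure D5:**
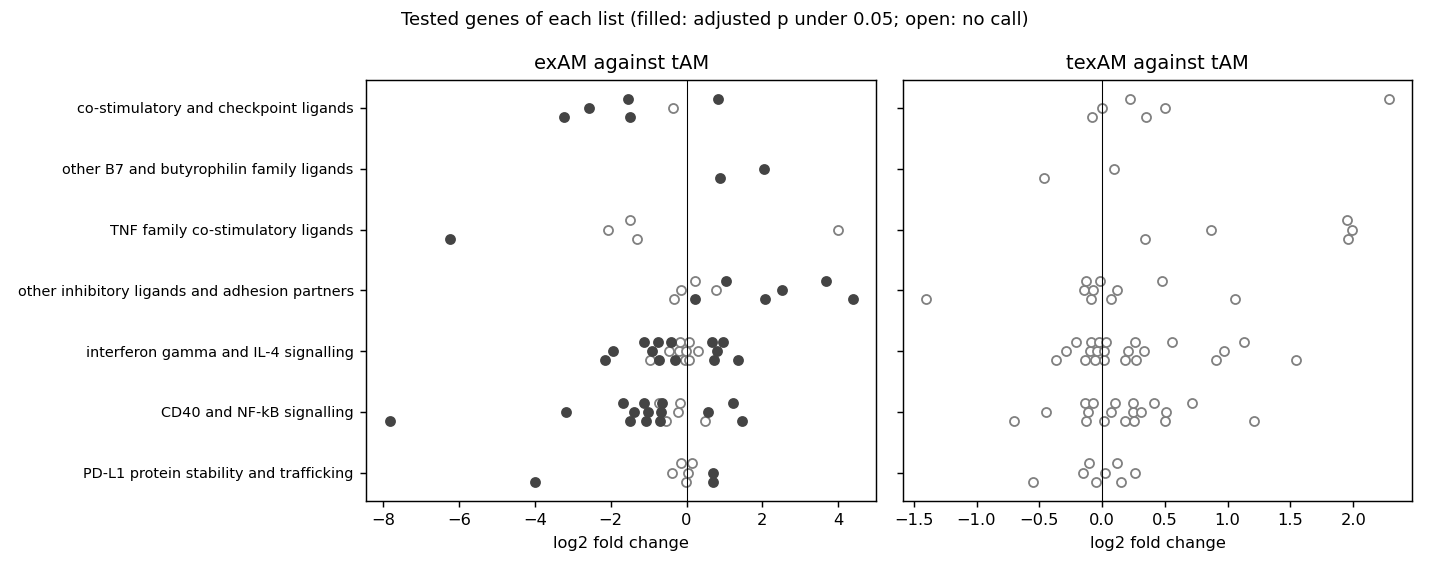
Log2 fold changes of the tested genes of the 6 members and 6 related lists in exAM against tAM (left) and texAM against tAM (right), filled where edgeR's adjusted p was under 0.05; the horizontal axes differ. Filled points lie on both sides of 0 in the left panel, and the right panel has 0 filled points.

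Over all 7 related lists together, the binding partners of the members' products included, 72 genes were tested. In texAM against tAM 0 of the 72 were called by edgeR (12 had an unadjusted p under 0.05, 3 were called by DESeq2), where edgeR called 0.00688% of all tested genes. In texAM against HostAM 1 of the 72, Tnfsf8, was called by edgeR (20 had an unadjusted p under 0.05, 3 were called by DESeq2), where edgeR called 0.33% of all tested genes. With so few calls among all genes, these counts do not set the lists apart. Shares of all genes by unadjusted p or by DESeq2 are not given here.

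Transcripts of other cells differed along with the members. For the lists that follow, 21.5% of all tested genes were called higher and 23.2% lower in exAM than in tAM. Dendritic cell markers summed to 648 to 717 CPM in texAM, 289 to 371 CPM in exAM, 527 to 604 CPM in tAM and 588 to 819 CPM in HostAM, with 10 of 15 tested markers lower and 1 higher in exAM than in tAM. In exAM Flt3, Cd209a, Siglech, Ccr7 and Dpp4 had 0 counts. The dendritic cell marker Clec9a went the other way, at 64.5 and 48.6 CPM in exAM and 34.9 and 24.1 CPM in tAM. B cell markers summed to 226 to 227 CPM in texAM, 189 to 190.0 CPM in exAM, 239 to 299 CPM in tAM and 244 to 306 CPM in HostAM. Cd22 alone made up 195 and 203 CPM of this in texAM, 187 and 189 CPM in exAM, 231 and 281 CPM in tAM, and 286 and 212 CPM in HostAM, and 3 of 6 tested B cell markers were lower and 0 higher in exAM than in tAM. In exAM Ms4a1, Cd79b, Pax5 and Blk had 0 counts, and in tAM Cd79b and Pax5 did. Dendritic cells and B cells also express Cd80, Cd86, Icosl, Pdcd1lg2 and Cd40, and the part of such cells in the members' differences was not tested.

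T and NK cell markers summed to 546 to 584 CPM in texAM, 36.7 to 67.2 CPM in exAM, 316 to 421 CPM in tAM and 256 to 346 CPM in HostAM, with Cd3d, Cd3e, Cd3g, Trbc2, Ncr1 and Nkg7 at 0 counts in exAM. Cd2 alone made up 195 and 208 CPM of this in texAM and 32.8 and 61.3 CPM in exAM. In tAM it made up 217 and 230 CPM, and in HostAM 213 and 212 CPM. Binding partners of the members' products are encoded by Cd28, Ctla4, Pdcd1, Icos, Cd40lg and Rgmb. Of these 6 genes, 6 were lower in exAM than in tAM, but fewer were called when either exAM library was left out. Rgmb was well detected in exAM, with 286 and 273 counts against 662 and 479 in tAM. Pdcd1, the gene of PD-1, had 33 and 19 counts in texAM, 0 and 0 in exAM, 35 and 18 in tAM, and 0 and 4 in HostAM. Icos had 384 and 216 counts in texAM, 0 and 0 in exAM, 63 and 50 in tAM, and 7 and 40 in HostAM. Ctla4 and Cd40lg also had 0 counts in both exAM libraries.

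Lung epithelial markers summed to 282 to 470.4 CPM in texAM, 3.09 to 7.37 CPM in exAM, 286 to 383 CPM in tAM and 549 to 601 CPM in HostAM, and 12 of 12 were lower in exAM than in tAM. Endothelial and stromal markers summed to 6.47 to 7.99 CPM in texAM, 54.4 to 65.5 CPM in exAM, 1.28 to 3.51 CPM in tAM and 1.10 to 2.19 CPM in HostAM, with Cldn5, Tek, Pdgfrb, Col1a1 and Col1a2 at 0 counts in exAM. Of 5 tested, Cdh5, Pdgfra, Kdr and Dcn, 4 in all, were higher in exAM than in tAM and 0 lower, and 2 were called without exAM 1, exAM 2, tAM 1 or tAM 2. Cdh5 had 167 and 115 counts and Pdgfra 114 and 269 counts in exAM, against 0 in both tAM libraries. Markers of monocytes and other macrophages summed to 258 to 309 CPM in texAM, 937 to 1241 CPM in exAM, 172 to 206 CPM in tAM and 215 to 219 CPM in HostAM, with C1qa at 0 counts in exAM. The exAM sum was mostly Itgam, at 1127 and 822 CPM in exAM and 47.0 and 47.8 CPM in tAM, and of the 11 markers tested 2 were higher and 5 lower in exAM than in tAM. Of the 15 alveolar macrophage markers 8 were higher and 2 lower in exAM than in tAM, and the 2 lower were Siglecf and Fcgr1. With scaling on the genes of high counts per base 3 were higher (Marco, Fabp4 and Adgre1) and 5 lower (Siglecf, Itgax, Ear1, Fcgr1 and Mertk), and Mrc1, Chil3, Car4, Cd68 and Lyz2 were not called. The sort that the lung cells passed and exAM did not is confounded with culture, and the effects of sorting and culture on the members cannot be told apart.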

How the data were processed

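For each of 37310 Ensembl IDs the authors deposited raw counts, whole numbers with no normalization. Bowtie, HTSeq 0.6.1 and R 3.3 are named in the submitters' processing notes, with the build mm10 (GRCm38); the strand setting and any removal of duplicate reads are not given in the sources used here. RNA of each pool was amplified with the Ovation RNA-seq system V2 from 2 ng before library making, per the labels' protocols. Positions and lengths came from GENCODE M21, which held 32620 of the IDs (87.4%).

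Counts were analysed in R 4.3.3 with edgeR 4.0.16 and limma 3.58.1. Genes were filtered by filterByExpr (minimum 10 counts), leaving 14537, and scaled by TMM. A robust quasi-likelihood model with 1 coefficient per group was fitted to all 8 libraries (4 residual degrees of freedom). Standard errors were taken as the log2 change over the root of F, and 95% intervals from them. Depth ran from 6546272 to 9154128 counts per library. Replicate libraries differed by 7.68 to 13.5 times the sampling noise (chi-square per degree of freedom), so none was counted as a duplicate. The code was tested on simulated data. Motifs were searched in RefSeq promoter sequences of GRCm38.p6.

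The members and lists were chosen with earlier results of these data known. Some genes of the lists are not reported here. Besides members and list genes, the text names for each member the 2 genes, of at least 10 CPM and with a regular symbol, closest to it in log2 CPM (prior count 2). The alternatives tried were an unfiltered table, a stricter filter of 50 counts, other scalings, a replicate block, DESeq2 1.42.0, fits of only the libraries compared, and leaving out each library.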

Additional observations from a re-analysis of the deposited data

How the results depend on the processing

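Of 611 recomputed log2 changes of the members, 591 kept their direction and their side of the threshold, 3 lost a call, 1 gained a call and 16, all uncalled, changed sign. Of 134 recomputed counts of members called, 132 stayed within 1.5 times. With no filter on low counts, Cd40 was called in tAM against HostAM and among the 3 lung groups, which gave a count of 1 in each against 0; the cause was not tested. Calls lost were those of Cd40 given with its values above. Replicate numbers were shared only in name, since deviations of same-numbered libraries correlated at -0.061 to 0.009, and with the replicate number as a block the counts of members called were 6, 0 and 0 for texAM against exAM, tAM and HostAM, 5 and 6 for exAM against tAM and HostAM, and 0 for tAM against HostAM, as without it. Cd40 in exAM against tAM could not be tested in a fit of only those 4 libraries, where it did not pass the filter.

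Signs changed as follows. Icosl in texAM against tAM was 0.010 with a minimum of 50 counts, 0.015 with library size alone and 0.12 with scaling on genes over 1 count per base. That scaling gave Cd274 0.036 in texAM against tAM, 0.0056 in texAM against HostAM and -0.031 in tAM against HostAM. Leaving out 1 library at a time, log2 changes ran from -0.088 to 0.079 for Icosl and from -0.029 to 0.65 for Cd86 in texAM against tAM, from -0.28 to 0.49 for Cd86 and from -0.11 to 0.021 for Cd274 in texAM against HostAM, from -1.53 to 0.27 for Cd40 in exAM against tAM, and in tAM against HostAM from -0.57 to 0.16 for Cd86 and from -0.28 to 0.25 for Pdcd1lg2. With both libraries of each group kept, list counts in exAM against tAM ran from 0 to 3 for TNF family ligands (1 as reported). They ran from 4 to 6 for the members' binding partners (6) and from 7 to 12 for lung epithelial markers (12). For endothelial and stromal markers they ran from 2 to 4 (4). Leaving out a library lowered the count of binding partners further. With scaling on genes over 1 count per base, 1 of the other B7 genes was called in each comparison with exAM, and the PD-L1 protein list had 5 calls in texAM against exAM and 6 in exAM against HostAM, against 3 in each. With 2 pools a group and few Cd40 counts, small changes of the members could not be detected.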

Other observations

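Co-stimulatory ligands of the TNF family, a group apart from the B7 genes, had low levels apart from Tnfsf8, the gene of CD30 ligand, and, in 1 texAM library, Tnfsf14 at 13.3 CPM. Of 7 such genes 5 were tested. Tnfsf8 stood at 28.1 and 22.9 CPM in texAM, 1.54 and 3.55 CPM in exAM, 5.46 and 7.40 CPM in tAM, and 0.992 and 2.19 CPM in HostAM, so that both texAM libraries were above all 6 others. It was higher in texAM than in HostAM (log2 4.00, edgeR adjusted p = 0.0179) and than in exAM (log2 3.305, edgeR adjusted p = 0.000596), and its log2 difference of 1.99 between texAM and tAM was not called (edgeR adjusted p = 0.388). The call against HostAM was lost without texAM 1, texAM 2 or HostAM 1, where 0 of the 5 were called. The sum of T and NK cell markers was also highest in texAM, at 546 to 584 CPM against 256 to 346 CPM in HostAM. Of these sums Cd2 made up 195 and 208 CPM in texAM and 213 and 212 CPM in HostAM. The part of T and NK cells in the Tnfsf8 difference was not tested.

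Tnfsf9, the gene of the 4-1BB ligand, was higher in texAM, at 1.88 and 5.70 CPM, than in exAM, at 0.172 and 0.772 CPM (log2 2.94, edgeR adjusted p = 0.0407). Tnfsf18, the gene of the GITR ligand, had 4 and 22 counts in texAM, 0 and 0 in exAM, 9 and 10 in tAM, and 9 and 3 in HostAM, and was called higher in texAM than in exAM (edgeR adjusted p = 0.0295). Of the 5 tested, 3 were higher in texAM than in exAM and 0 lower, where 23.2% of all tested genes were higher and 20.5% lower. The number called ran from 1 to 4 when 1 library was left out.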
